A study of Mus musculus with 21 samples.

Results

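Day 7 after folic acid was compared with day 1 in whole mouse kidney, the onset of fibrosis in this model against the first injury response. The comparison rests on 6 of the 21 small RNA libraries of the study, the 3 labelled day 1 and the 3 labelled day 7, and on 431 of 1125 mature miRNAs (38.3%), those that passed a filter on low counts. Both groups were kidneys of 12-week-old male BALB/c mice, each injected with folic acid (250 mg/kg, dissolved in 0.3 M sodium bicarbonate). The groups therefore share strain, sex, agent and dose and differ in the day of collection, and no group without folic acid stands beside either day. Whether each library is a mouse of its own is not stated in the labels. The p-values therefore weigh differences against the scatter among libraries of the same day, pooled over all 21 libraries. This scatter may be technical.

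miRNAs are short RNAs that guide Argonaute proteins to complementary messenger RNAs, which are then repressed. Target choice rests mainly on the seed, bases 2 to 8 from the 5′ end, so miRNAs that share a seed are grouped as a family. A single hairpin can give a miRNA from each of its arms, named 5p and 3p. Folic acid at a high dose injures the renal tubules, and repair with invading leukocytes, activated fibroblasts and deposited collagen follows. Because whole kidney was measured, fewer cells of a type and less of a miRNA per cell cannot be told apart in any result below.

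The sequences that the results turn on come from RefSeq (GRCm38.p6) and are written 5′ to 3′ with the seed in capitals. The first set holds miRNAs with some of the largest rises. miR-214 and miR-199a have a seed each per arm, and miR-130b-3p and miR-301a-3p share one.
miR-214-3p: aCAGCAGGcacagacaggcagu
miR-214-5p: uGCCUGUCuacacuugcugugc
miR-199a-3p: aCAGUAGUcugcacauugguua
miR-199a-5p: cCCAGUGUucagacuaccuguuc
miR-298-5p: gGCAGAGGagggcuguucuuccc
miR-511-3p: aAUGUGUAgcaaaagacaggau
miR-342-3p: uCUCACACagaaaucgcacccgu
miR-130b-3p: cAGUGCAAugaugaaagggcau
miR-301a-3p: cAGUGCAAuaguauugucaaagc
miR-204-5p: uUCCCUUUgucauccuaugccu

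The second set holds families in which the called members moved one way. miR-146a-5p and miR-146b-5p, the miR-181 members and the miR-15 and miR-16 members were higher at day 7. The miR-29 members and miR-192-5p with miR-215-5p were lower.
miR-146a-5p: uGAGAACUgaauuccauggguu
miR-146b-5p: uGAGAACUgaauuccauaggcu
miR-181c-5p: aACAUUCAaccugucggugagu
miR-181d-5p: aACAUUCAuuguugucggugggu
miR-15b-5p: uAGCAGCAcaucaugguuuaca
miR-16-5p: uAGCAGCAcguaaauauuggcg
miR-29a-3p: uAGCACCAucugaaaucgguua
miR-29c-3p: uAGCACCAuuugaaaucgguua
miR-192-5p: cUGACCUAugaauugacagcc
miR-215-5p: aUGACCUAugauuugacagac

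The third set holds the 3 seeds whose members were called in both directions, with the members that were higher given first in each.
miR-93-5p: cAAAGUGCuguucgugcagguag
miR-106b-5p: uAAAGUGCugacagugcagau
miR-106a-5p: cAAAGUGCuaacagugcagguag
miR-20b-5p: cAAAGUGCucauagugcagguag
miR-25-3p: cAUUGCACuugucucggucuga
miR-92b-3p: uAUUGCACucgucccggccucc
miR-92a-3p: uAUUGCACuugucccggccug
miR-363-3p: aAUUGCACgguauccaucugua
let-7i-5p: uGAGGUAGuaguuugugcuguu
let-7g-5p: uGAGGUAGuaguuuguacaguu

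The fourth set holds miRNAs with large falls that are described below, of which miR-451 and miR-144-3p are known from red blood cells.
miR-451: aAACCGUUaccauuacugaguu
miR-144-3p: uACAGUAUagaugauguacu
miR-190-5p: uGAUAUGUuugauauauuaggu
miR-3073b-5p: aUGGUCACaguggacaucaacc

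Between 2875675 and 6415634 reads were assigned to miRNAs in the 6 libraries, and 587 to 671 miRNAs had at least 1 read in a library. The limit set by a count of 0 is 3 reads, or 0.468 CPM in the deepest of the 6 libraries and 1.04 CPM in the shallowest, for counting error only. The 10 most abundant miRNAs held 71.0 to 72.7% of the reads of a day 1 library and 71.7 to 72.4% of those of a day 7 library. The days separated on the first principal component of the 6 libraries, which held 61.2% of the variance. The tissue label was met by miR-192-5p, miR-10a-5p and miR-30a-5p among the 10 most abundant miRNAs. Of 8 listed miRNAs of other organs 4 had 0 reads in all 6 libraries, miR-122-3p of liver, miR-124-3p of brain and miR-216a-5p and miR-217-5p of pancreas. The rest of that list had reads. In a library miR-9-5p had 661 to 1416 reads, miR-375-3p 547 to 3960, miR-9-3p 9 to 27 and miR-122-5p 0 to 2.

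At day 7, 150 of the 431 miRNAs differed from day 1 (34.8%, limma, adjusted p under 0.05), of which 92 were higher (21.3%) and 58 lower (13.5%). Counts of list members below are to be read against these shares, and no list was tested as a set. Among the called miRNAs 35 differed at least 2-fold, 26 upward and 9 downward, and the median log2 difference was 0.80 among the higher and -0.58 among the lower. The median over all 431 was 0.03. Levels are CPM, in which each library's miRNA reads sum to the same total, further scaled by TMM, a factor per library that aligns the bulk of the miRNAs. Fold changes were taken between values of CPM + 1 and are therefore too small for scarce miRNAs. With upper-quartile scaling the median of all miRNAs moved by -0.19 on the log2 scale and the split became 57 higher and 108 lower. Without day 7 replicate 1 the fit called 96 miRNAs, 61 higher and 35 lower. A fit of days 1 and 7 alone, whose spread comes from these 6 libraries, called 101, 67 higher and 34 lower. The 3 values of one day lay outside those of the other for 180 miRNAs (41.8%), and for 134 of the 150 called.

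**Figure D1:**
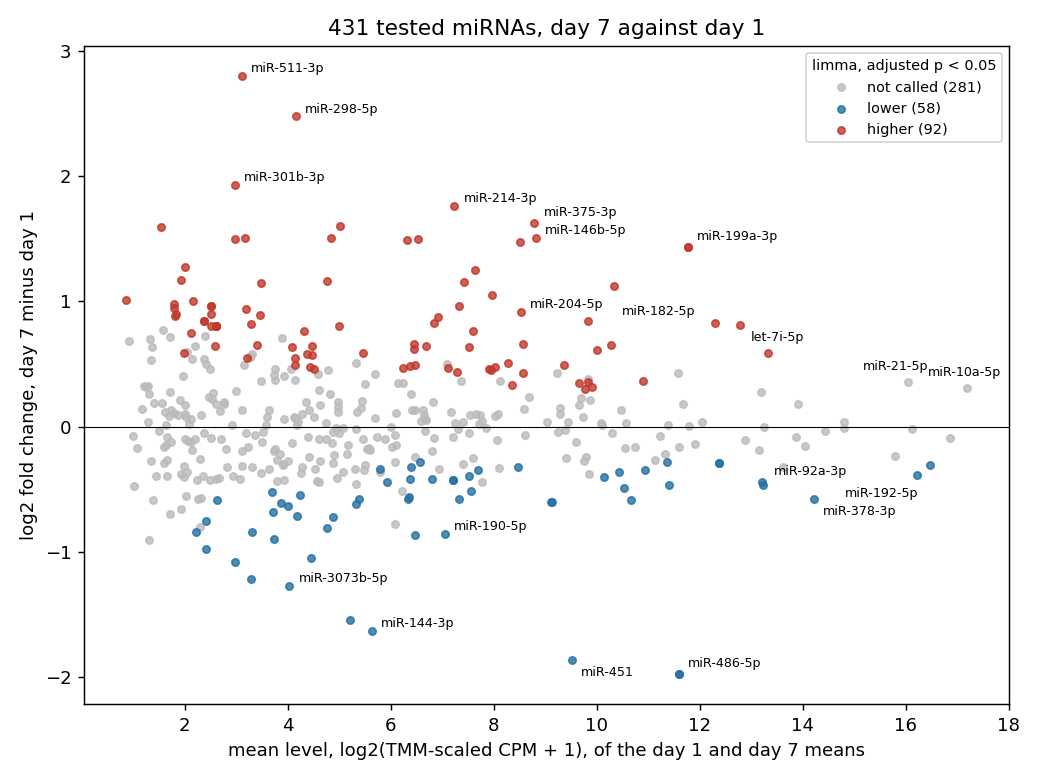
Log2 fold change of day 7 over day 1 against the mean level on a log2(TMM-scaled CPM + 1) scale, with 1 point for each of the 431 tested miRNAs. The 92 called higher are red, the 58 called lower are blue, and the rises reach 2.80 (miR-511-3p) while the falls reach -1.98 (miR-486-5p).

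Calls were counted by level, without a test of the difference between levels. Of 58 miRNAs at 1000 CPM or more, 9 were higher and 16 lower. Of 237 miRNAs between 10 and 1000 CPM, 53 were higher and 35 lower, and of 136 below 10 CPM, 30 were higher and 7 lower.

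Among the largest rises were those of miR-214 and miR-199, known from fibroblasts and other mesenchymal cells. All 6 members of this list passed the filter and were higher at day 7, with a median log2 difference of 1.46. The rows of miR-199a-3p and miR-199b-3p do not differ by a single read, so the list has 5 separate rows. miR-214-3p stood at 80.2, 63.5 and 59.8 CPM in the day 1 libraries and at 255, 203 and 238 CPM in the day 7 libraries. Every day 7 library lay above every day 1 library, and the level was 3.39-fold higher (log2 difference 1.76, SE 0.21, adjusted p = 1.73e-06). The other arm, miR-214-5p, stood at 12.7 to 15.3 CPM at day 1 and 36.6 to 46.1 CPM at day 7 (1.50, SE 0.17).

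miR-199a-3p stood at 2134, 1908 and 1658 CPM at day 1 and at 5010, 5234 and 5098 CPM at day 7. The day 7 libraries lay close together and all above day 1 (2.70-fold, log2 difference 1.44, SE 0.15, adjusted p = 4.21e-07). miR-199a-5p stood at 198, 174 and 200 CPM at day 1 and at 672, 521 and 429 CPM at day 7 (2.78-fold). miR-199b-5p, from another hairpin, was scarcer, with 14.6 to 16.1 CPM at day 1 and 23.4 to 52.7 CPM at day 7 (log2 difference 1.16, SE 0.23, adjusted p = 0.000648).

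Both arms of miR-214 lie in an exon of the noncoding RNA Dnm3os on chromosome 1, opposite an intron of Dnm3 (miR-214-3p at chr1:162223438-162223459, plus strand, GRCm38). One of the 2 hairpins that give miR-199a lies in Dnm3os as well, and the other lies opposite an intron of Dnm2 on chromosome 9, so reads of mature miR-199a cannot be assigned to either. None of the 4 tested arms of miR-143 and miR-145, known from smooth muscle cells, was called by limma, edgeR or DESeq2, and 0 had an unadjusted p under 0.05 in limma. With upper-quartile scaling 1 was called lower. miR-143-3p was at 62362 to 79668 CPM at day 1 and 63444 to 78242 CPM at day 7 (log2 difference -0.02, 95% interval -0.24 to 0.21). miR-145-5p gave -0.24 (95% interval -0.75 to 0.27).

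**Figure D2:**
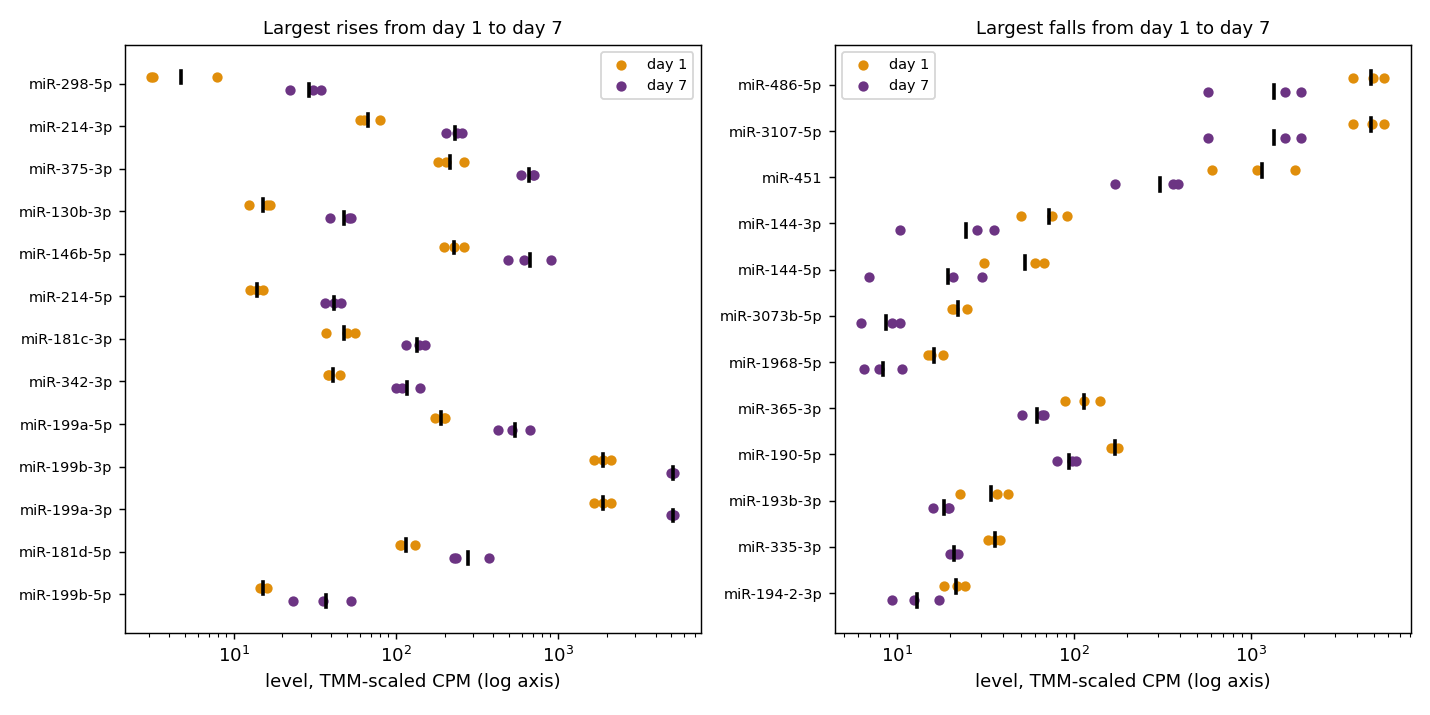
Levels in TMM-scaled CPM on a log axis for the largest rises (left) and falls (right) among called miRNAs at a mean of 10 CPM or more, with 1 point per library and a bar at the mean of 3. In every row the 3 day 7 libraries (purple) lie on one side of the 3 day 1 libraries (orange), which was a condition for showing them, and rows that share reads (miR-199a-3p with miR-199b-3p, miR-486-5p with miR-3107-5p) look alike.

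Leukocyte miRNAs were higher at day 7 in 7 of 11 tested members and lower in 1, with a median log2 difference of 1.12. The largest of these rises were in 3 scarce myeloid arms, miR-511-3p, miR-511-5p and miR-223-5p. The more abundant myeloid arm miR-223-3p had the smallest rise of the 7 (0.76). miR-511-3p, made from an intron of Mrc1, the macrophage mannose receptor gene (chr2:14261051-14261072, plus strand, GRCm38), stood at 1.83, 0.517 and 1.12 CPM at day 1 and at 10.2, 21.1 and 11.4 CPM at day 7. It had the largest log2 difference of the 431 miRNAs (2.80, SE 0.31, adjusted p = 8.31e-07), and its day 1 values are those of a few reads per library. Its other arm, miR-511-5p, was at 0 to 0.780 CPM at day 1 and 3.11 to 3.48 CPM at day 7 (adjusted p = 0.00466).

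miR-223-3p, the main arm of a hairpin known from neutrophils and other myeloid cells, stood at 148, 126 and 150 CPM at day 1 and at 236, 301 and 193 CPM at day 7. The days did not overlap (log2 difference 0.76, SE 0.21, adjusted p = 0.00847), and the call went when day 7 replicate 2 was left out (adjusted p = 0.053). The minor arm miR-223-5p was at 2.86 to 4.10 CPM at day 1 and 7.71 to 16.9 CPM at day 7 (1.51, SE 0.25). The difference between the arms was not tested. miR-142, made in most blood cell lineages, was higher in both arms, with miR-142-5p at 857, 755 and 809 CPM at day 1 and 1633, 2220 and 1490 CPM at day 7 (2.18-fold, adjusted p = 6.29e-06).

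Of the lymphoid members, miR-342-3p rose and miR-150-5p was not called. miR-342-3p, from an intron of Evl (chr12:108658680-108658702, plus strand, GRCm38), stood at 38.3, 38.6 and 45.6 CPM at day 1 and at 142, 110 and 100 CPM at day 7 (2.81-fold, log2 difference 1.49, SE 0.18, adjusted p = 1.73e-06). miR-150-5p, known from mature lymphocytes, overlapped between the days at 232 to 268 and 207 to 343 CPM (0.08, 95% interval -0.32 to 0.49).

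The member that fell was miR-155-5p, induced in activated leukocytes by NF-kB, the transcription factor of inflammatory signalling. It stood at 94.3, 82.4 and 107 CPM at day 1 and at 74.2, 70.1 and 65.7 CPM at day 7, with no overlap (log2 difference -0.42, SE 0.12, adjusted p = 0.00973). It was not called without day 1 replicate 3 (adjusted p = 0.0547) or in the fit of days 1 and 7 alone (0.058). Of the 5 tested miRNAs induced by NF-kB, 2 were higher and miR-155-5p was the 1 lower, with a median of 0.01 whose sign changed under relative log expression and upper-quartile scaling. The 2 were miR-146b-5p and miR-146a-5p, which share a seed and are known to repress the adaptor Traf6 and the kinase Irak1.

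miR-146b-5p stood at 197, 229 and 263 CPM at day 1 and at 903, 614 and 495 CPM at day 7 (2.84-fold, log2 difference 1.51, SE 0.20, adjusted p = 1.04e-05). miR-146a-5p stood at 160, 160 and 166 CPM at day 1 and at 327, 408 and 284 CPM at day 7 (2.07-fold, adjusted p = 0.000952). In both the day 7 libraries were the more spread and all of them lay above day 1. miR-147-3p and miR-125b-5p, the remaining tested members, overlapped between the days.

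Among 6 tested arms of miR-21, miR-132 and miR-212, miRNAs known to respond early to injury, 1 was higher and the median was 0.36. Over all tested miRNAs the share higher was 21.3%. miR-21-5p, known to rise in injured kidney, stood at 59818, 55726 and 62821 CPM at day 1 and at 87412, 74648 and 66742 CPM at day 7. The values did not overlap, but the difference did not pass (log2 difference 0.35, 95% interval 0.03 to 0.67, adjusted p = 0.081). The opposite arm miR-21-3p lay on the other side, at 938 to 1204 CPM at day 1 and 758 to 829 CPM at day 7 (-0.38, adjusted p = 0.14; called with upper-quartile scaling, adjusted p = 0.0224). miR-132-3p gave 0.36 (adjusted p = 0.163) and miR-212-3p 0.20 (adjusted p = 0.56). miR-132-5p gave 0.58 and was not called in the main fit. It was called higher by edgeR (adjusted p = 0.0449) and by limma without day 7 replicate 3 (0.0398). The arm called in the main fit was miR-212-5p, at 5.69 to 5.98 CPM at day 1 and 12.4 to 18.4 CPM at day 7 (1.14, SE 0.22, adjusted p = 0.000608).

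The list of tubule and kidney abundant miRNAs had 2 of 10 tested members higher and 3 lower, where 21.3% of all tested miRNAs were higher and 13.5% lower, with a median of -0.00 that was 0.02 with library totals. Without day 1 replicate 1 or day 7 replicate 1 the number lower was 1. The rows of miR-194-2, named otherwise in the list, are not among the 10: miR-194-2-5p was not called (-0.27, adjusted p = 0.128) and miR-194-2-3p fell (-0.71). miR-204-5p, from an intron of the cation channel gene Trpm3 (chr19:22750610-22750631, plus strand, GRCm38), stood at 282, 245 and 240 CPM at day 1 and at 537, 454 and 460 CPM at day 7. All day 7 libraries lay above day 1 (1.89-fold, log2 difference 0.92, SE 0.10, adjusted p = 6.14e-07).

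miR-190-5p, from an intron of the talin gene Tln2 (chr9:67236700-67236721, minus strand, GRCm38), went down. It stood at 163, 169 and 179 CPM at day 1 and at 98.0, 103 and 80.6 CPM at day 7 (1.81-fold lower, log2 difference -0.86, SE 0.18, adjusted p = 0.00146). Its other arm, miR-190-3p, was lower as well (-1.08, SE 0.23).

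miR-192-5p, abundant in kidney tubules, stood at 91886, 88901 and 78782 CPM at day 1 and at 58306, 67091 and 73506 CPM at day 7, with no overlap (-0.39, SE 0.12, adjusted p = 0.0165). Omitting day 1 replicate 1 (adjusted p = 0.067), day 1 replicate 2 (0.0509) or day 7 replicate 1 (0.0987) ended the call. miR-215-5p, which has the same seed, was at 15 to 18.9 CPM at day 1 and 7.79 to 12.5 CPM at day 7 (-0.61, adjusted p = 0.0204). Omitting day 1 replicate 1 (0.0861) or day 7 replicate 1 (0.135) ended that call too, as did the fit of days 1 and 7 alone (0.0566). miR-196b-5p, from a Hox cluster, was higher (0.30, adjusted p = 0.0165) but not without day 1 replicate 2 (0.0509) or day 7 replicate 1 (0.103). Nor was it called in the fit of days 1 and 7 alone (0.0855).

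All 9 listed arms of the miR-30 family, abundant in tubules and podocytes, had log2 differences below 0 (median -0.22, from -0.36 to -0.08). Of these, miR-30a-3p was called (adjusted p = 0.0116), though not without day 7 replicate 2 (adjusted p = 0.0601). miR-30c-3p, an arm outside the list, was lower as well (-0.35, adjusted p = 0.00761). Thus 2 of 10 arms were called lower, where 13.5% of all tested miRNAs were. With upper-quartile scaling 7 of the 10 were called lower, and in the fit of days 1 and 7 alone 0 were. miR-30a-5p, the most abundant of them, was at 54099 to 70706 CPM at day 1 and 50617 to 54914 CPM at day 7 (-0.23, 95% interval -0.47 to 0.00). It was called lower with library totals (adjusted p = 0.0403) and with upper-quartile scaling (0.0161). In the miR-200 family, which keeps epithelial cells epithelial by repressing Zeb1 and Zeb2, the median was -0.01, against 0.01 with library totals. Of its 8 tested arms 1 was higher, where 21.3% of all tested miRNAs were. That arm, miR-200c-3p, stood at 148, 121 and 158 CPM at day 1 and at 234, 218 and 210 CPM at day 7 (1.55-fold, log2 difference 0.63, SE 0.14, adjusted p = 0.00213).

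The miR-29 family, known to repress collagens and other matrix genes, was lower. Of the 5 listed arms 4 were called lower and the fifth, miR-29a-5p, gave -0.30 (adjusted p = 0.18). The median was -0.47. miR-29a-3p, the most abundant, stood at 3110, 3054 and 3248 CPM at day 1 and at 2087, 2347 and 2385 CPM at day 7 (1.38-fold lower, adjusted p = 0.00261). miR-29c-3p stood at 607, 702 and 687 CPM at day 1 and at 357, 508 and 462 CPM at day 7 (1.52-fold lower, adjusted p = 0.00274). In both, every day 7 library lay below every day 1 library. The other calls, miR-29b-3p (-0.40) and miR-29c-5p (-0.54), were lost without day 1 replicate 2, day 1 replicate 3, day 7 replicate 1 or day 7 replicate 3, each of which left 2 calls among the listed arms. The fit of days 1 and 7 alone lost both as well (adjusted p = 0.0802 for each). miR-29b-5p, outside the list, was lower too (-0.75, adjusted p = 0.0259) and dropped out when day 1 replicate 3 (0.0878), day 7 replicate 1 (0.106) or day 7 replicate 2 (0.109) was omitted. It was also lost in the fit of days 1 and 7 alone (0.0573).

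**Figure D3:**
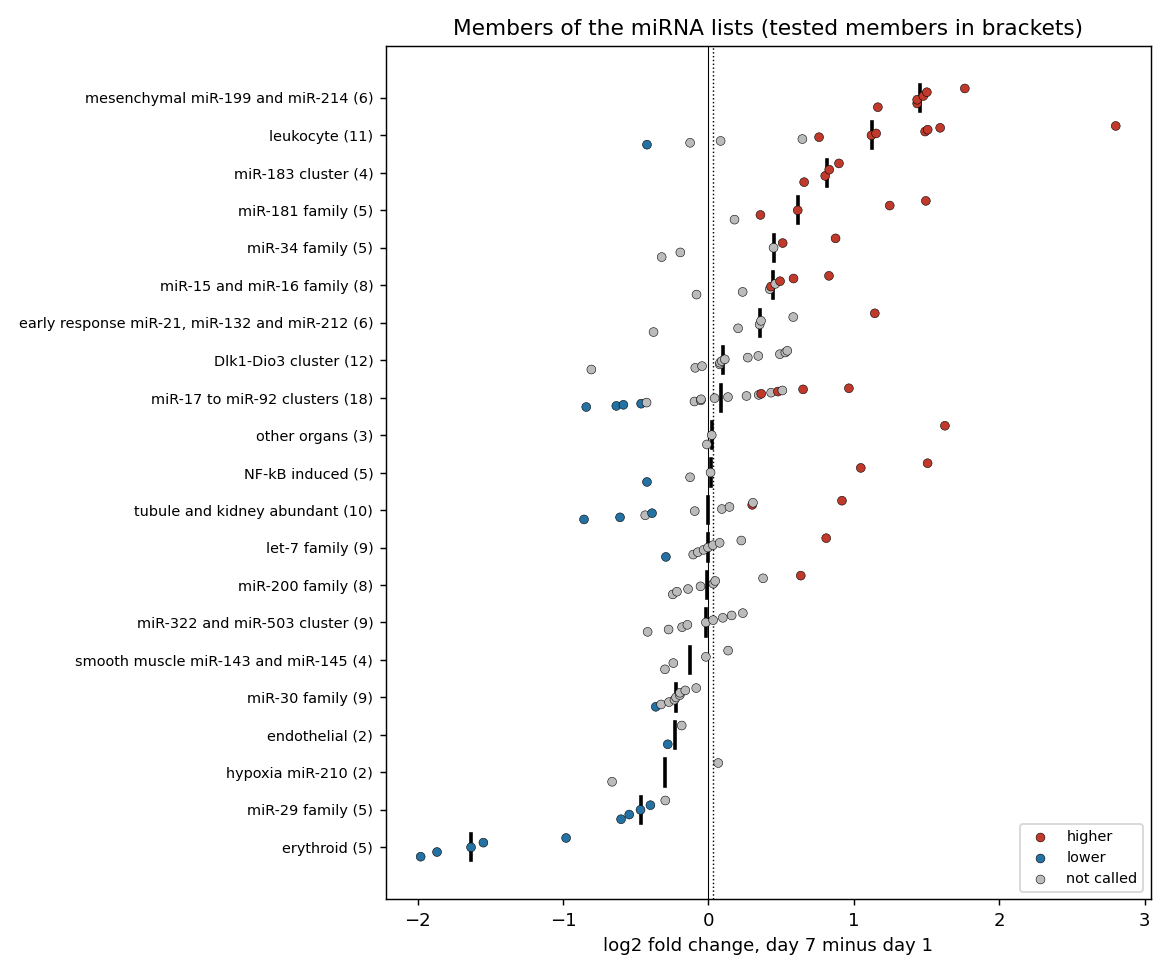
Log2 fold change of day 7 over day 1 for the tested members of each miRNA list with 2 or more of them, with a bar at the list's median and a dotted line at the median of all tested miRNAs (0.03). Mesenchymal members lie highest (median 1.46) and erythroid members lowest (median -1.63), while medians of the tubule, let-7, miR-200 and NF-kB lists lie within 0.02 of 0 and change sign with the scaling.

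In the clusters that run from miR-17 to miR-92, known from dividing cells, the median was 0.09 and turned to -0.10 with upper-quartile scaling. Of the 18 listed arms tested 4 were higher and 4 lower, where 21.3% of all tested miRNAs were higher and 13.5% lower. The higher ones include miR-93-5p, miR-106b-5p and miR-25-3p, which lie within Mcm7, a gene of the replicative helicase, on chromosome 5. miR-93-5p stood at 946, 956 and 970 CPM at day 1 and at 1715, 1452 and 1365 CPM at day 7 (1.57-fold, log2 difference 0.65, SE 0.09, adjusted p = 1.55e-05). miR-106b-5p was at 95 to 117 CPM at day 1 and 156 to 320 CPM at day 7 (0.97, adjusted p = 0.000584). miR-25-3p was higher (0.36, adjusted p = 0.0165), but not without day 1 replicate 3 (0.0849) or day 7 replicate 1 (0.0633).

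The lower ones include 3 members of the X chromosome cluster, miR-106a-5p, miR-20b-5p and miR-363-3p, which lie in a row on the minus strand (miR-20b-5p at chrX:52742159-52742181, GRCm38) and have no host gene in the annotation. They were scarce, with 5.70 to 19.8 CPM at day 1 and 3.23 to 13.6 CPM at day 7, and log2 differences of -0.58, -0.84 and -0.63. Each of these calls depended on single libraries, and those of miR-106a-5p and miR-363-3p also on the fit. Neither was called by edgeR (adjusted p = 0.0868 and 0.0524), in the fit of days 1 and 7 alone (0.0988 and 0.0511) or in that without day 0 (0.0521 and 0.0541). DESeq2 did not call miR-106a-5p (adjusted p = 0.106). Without day 1 replicate 1, none of the 3 was called (adjusted p = 0.0616 for miR-106a-5p, 0.0717 for miR-20b-5p and 0.0861 for miR-363-3p), and without day 1 replicate 2 none was either (0.0509, 0.0627 and 0.0586). miR-106a-5p was also lost without day 1 replicate 3 (0.124), day 7 replicate 1 (0.143) and day 7 replicate 3 (0.129), miR-20b-5p without day 7 replicate 1 (0.131), and miR-363-3p without day 1 replicate 3 (0.10) and day 7 replicate 3 (0.203).

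miR-92a-3p, which has a copy in the chromosome 14 cluster and another in the X cluster, held its call in every setting. It stood at 12092, 10231 and 10829 CPM at day 1 and at 9130, 7265 and 7716 CPM at day 7 (1.38-fold lower, log2 difference -0.46, SE 0.10, adjusted p = 0.00132). Its other arm miR-92a-5p, outside the list, was lower too (-0.62, adjusted p = 0.000757). miR-17-5p and miR-20a-5p of the chromosome 14 cluster overlapped between the days, with log2 differences of 0.04 (95% interval -0.24 to 0.32) and -0.05 (-0.30 to 0.19). miR-17-3p was the remaining rise (0.48, adjusted p = 0.0275), lost without day 1 replicate 1 (0.111), day 1 replicate 2 (0.126), day 7 replicate 1 (0.089) or day 7 replicate 3 (0.0602). The fit of days 1 and 7 alone lost it too (0.0905).

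The seeds of these clusters therefore carried members of both directions. Among the 6 tested miRNAs with the seed AAAGUGC, miR-93-5p and miR-106b-5p were higher and miR-106a-5p and miR-20b-5p lower. Among the 5 with AUUGCAC, miR-25-3p and miR-92b-3p were higher and miR-92a-3p and miR-363-3p lower. The call of miR-92b-3p (0.45, adjusted p = 0.0263) dropped out when day 1 replicate 2 (0.18) or day 7 replicate 1 (0.175) was omitted. It was also absent in the fit of days 1 and 7 alone (0.0929).

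The third such seed was that of let-7, GAGGUAG, known from differentiated cells. Of 9 tested family members 1 was higher and 1 lower, where 21.3% of all tested miRNAs were higher and 13.5% lower. The median was -0.00, and 0.02 with library totals. let-7i-5p stood at 5221, 5184 and 4841 CPM at day 1 and at 9643, 8708 and 8407 CPM at day 7 (1.75-fold, log2 difference 0.81, SE 0.14, adjusted p = 0.00021). let-7g-5p stood at 6091, 6025 and 5455 CPM at day 1 and at 4607, 4730 and 5003 CPM at day 7 (1.22-fold lower, adjusted p = 0.0091). Its call, on which the 2 directions of this seed rest, was lost with library totals (0.0643, or 0.0801 with a replicate block added). The fit of days 1 and 7 alone lost it too (0.0626). let-7i-5p and let-7g-5p, both of 22 bases, thus changed order, with let-7i-5p the lower in every day 1 library and the higher in every day 7 library.

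Seeds were looked up for the 337 tested miRNAs with a RefSeq sequence, and 38 seeds had 2 or more of them. In 13 of these seeds at least 2 members were called, and in 10 of the 13 all called members went one way. One of the 10, CAGUAGU, holds only miR-199a-3p and miR-199b-3p, whose reads are identical, so its agreement was fixed in advance. How many would go one way given 92 higher and 58 lower calls over all miRNAs was not tested. The seed AGCAGCA of miR-15 and miR-16, known to restrain cyclins and Bcl2, had 4 of 6 members higher. Of the 8 listed arms tested, 4 were higher and none was lower (median 0.45), and miR-16-3p, outside the list, was not called (0.10, adjusted p = 0.64). miR-15b-5p, from an intron of the condensin gene Smc4, stood at 69.5, 85.8 and 89.3 CPM at day 1 and at 170, 149 and 120 CPM at day 7 (1.78-fold, adjusted p = 8.81e-05). miR-16-5p stood at 8070, 7301 and 9193 CPM at day 1 and at 14778, 11802 and 10490 CPM at day 7 (1.50-fold, adjusted p = 0.0033). miR-15a-5p gave 0.49 (adjusted p = 0.000534), and miR-497-5p gave 0.43 (adjusted p = 0.00835), lost without day 7 replicate 2 (0.0549).

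Of 3 members of the seed AGUGCAA, 2 were higher. miR-130b-3p stood at 16.9, 12.4 and 16.1 CPM at day 1 and at 53, 51.5 and 39.3 CPM at day 7 (3.03-fold, log2 difference 1.60, SE 0.18, adjusted p = 7.17e-07). miR-301a-3p, from an intron of Ska2, stood at 629, 547 and 753 CPM at day 1 and at 1511, 1025 and 965 CPM at day 7 (1.79-fold, adjusted p = 0.000406). In both the days stood apart, whereas miR-130a-3p, the third member, gave 0.21 (95% interval 0.01 to 0.41, adjusted p = 0.0911).

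The miR-181 family, known from lymphocytes and the vessel wall, had 4 of 5 listed arms higher (median 0.61). Outside the list, miR-181a-3p (0.64, adjusted p = 0.00227) and miR-181b-3p (0.94, adjusted p = 0.0196) were higher too, and miR-181b-3p dropped out when day 1 replicate 3 (0.0561) or day 7 replicate 2 (0.0917) was omitted. miR-181d-5p stood at 131, 108 and 107 CPM at day 1 and at 377, 230 and 236 CPM at day 7 (2.37-fold, adjusted p = 1.79e-06). miR-181c-5p, encoded beside it in an intron of Nanos3 on chromosome 8, stood at 832, 791 and 806 CPM at day 1 and at 1303, 1274 and 1148 CPM at day 7 (1.53-fold, adjusted p = 0.000253). Its other arm, miR-181c-3p, was 2.82-fold higher. miR-181a-5p, the most abundant member at 12537 to 16918 CPM over both days, was not called (0.18, 95% interval -0.04 to 0.40). miR-181b-5p (0.36) was not called without day 1 replicate 2 (adjusted p = 0.123) or day 7 replicate 1 (adjusted p = 0.0824), nor in the fit of days 1 and 7 alone (0.0743).

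All 4 tested arms of the miR-183 cluster, known from sensory organs, were higher (median 0.82), with 2 called in the fit of days 1 and 7 alone. Without day 1 replicate 1 or day 7 replicate 1 only 1 remained called. This was miR-182-5p, at 3011, 2878 and 5037 CPM at day 1 and 8757, 5173 and 5421 CPM at day 7 (1.78-fold, adjusted p = 0.00499). Day 1 replicate 3 was the highest of its day and lay just below the lowest day 7 library. In the miR-34 family, induced by p53, 2 of 5 tested arms were higher (median 0.45). miR-34a-5p stood at 62.9, 73.1 and 121 CPM at day 1 and at 124, 194 and 146 CPM at day 7 (1.83-fold, adjusted p = 0.00407). The other, miR-34c-5p (0.51), dropped out when day 1 replicate 2 (adjusted p = 0.0653) or day 7 replicate 1 (0.0568) was omitted, and in the fit of days 1 and 7 alone (0.0508).

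Other large rises belonged to no such family. miR-375-3p, known from pancreatic islets and also made in some epithelial cells, stood at 264, 182 and 204 CPM at day 1 and at 710, 588 and 701 CPM at day 7. The days were far apart (3.09-fold, log2 difference 1.63, SE 0.14), and its adjusted p was the smallest of the 431 (7.83e-08). It was listed with miRNAs of other organs, of which 3 of 8 were tested. The other tested ones, miR-9-5p (-0.01) and miR-9-3p (0.02), were not called, and miR-122-5p of liver had 0 to 2 reads in a library. miR-298-5p, from the imprinted Gnas region (chr2:174267553-174267575, minus strand, GRCm38), stood at 3.19, 3.11 and 7.85 CPM at day 1 and at 34.4, 30.9 and 22.4 CPM at day 7 (5.57-fold, log2 difference 2.48, SE 0.26, adjusted p = 4.95e-07).

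Further lists had no call. None of 9 tested arms of the miR-322 and miR-503 cluster was called by limma, edgeR or DESeq2, and 0 had an unadjusted p under 0.05 in limma, with log2 differences between -0.42 and 0.24. miR-210-3p (0.07) and miR-210-5p (-0.66), known from hypoxia, were not called by any of the 3 tools, with 1 of them at an unadjusted p under 0.05. Of 53 members of the imprinted Dlk1-Dio3 cluster, 12 passed the filter and limma called none, with 3 at an unadjusted p under 0.05, while edgeR called 0 and DESeq2 1. In that cluster 6 of the 53 had 0 reads in all 6 libraries. Without day 1 replicate 3, 2 Dlk1-Dio3 members were called higher, without day 7 replicate 3, 1 was, and without day 1 replicate 1 miR-210-5p was called lower. The member called by DESeq2 was miR-409-3p, which was lower (-0.80 in limma). It was also called lower in the fit of days 1 and 7 alone (0.0324), in that without day 0 (0.0462) and with CPM + 5 (0.0479). Upper-quartile scaling called miR-409-3p (0.0337), miR-210-5p (0.0427) and miR-503-3p (0.0314) lower.

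The largest falls were those of erythroid miRNAs, which mature red blood cells carry in quantity. All 5 tested arms were lower (median -1.63), and their summed level, in CPM before TMM scaling, was 4625 to 8160 CPM in the day 1 libraries and 823 to 2262 CPM in the day 7 libraries. miR-451 stood at 606, 1794 and 1086 CPM at day 1 and at 390, 362 and 171 CPM at day 7 (3.64-fold lower, log2 difference -1.87, SE 0.45, adjusted p = 0.00369). miR-486-5p stood at 3822, 5713 and 4898 CPM at day 1 and at 1933, 1562 and 578 CPM at day 7 (3.94-fold lower, adjusted p = 0.00406). Its row differs from that of miR-3107-5p by at most 0.466% of the reads, so these 2 cannot be separated.

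Day 7 replicate 3 was the lowest library for these miRNAs except miR-486-3p, and the day 1 libraries were widely spread for miR-451. miR-144-3p, which shares its cluster on chromosome 11 with miR-451, was lower as well (-1.63, SE 0.49, adjusted p = 0.0148). Omitting day 1 replicate 2 (0.0586) or day 7 replicate 3 (0.0907) ended its call. Without either of these libraries 2 of the 5 arms were called, and 3 without day 1 replicate 3 or day 7 replicate 1. What part the level of red cell miRNAs has in other results was not tested.

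The remaining marker lists, of striated muscle and endothelium, had 1 call each. miR-133a-3p, of striated muscle, was at 17.5 to 37.4 CPM at day 1 and 9.95 to 18.6 CPM at day 7, with overlap (-1.05, adjusted p = 0.0133), and the other 7 muscle miRNAs did not pass the filter. It was not called without day 1 replicate 2 (0.0509), day 1 replicate 3 (0.0647), day 7 replicate 1 (0.0568) or day 7 replicate 3 (0.0554). miR-126-3p, of endothelium, was at 2747 to 3034 CPM at day 1 and 2317 to 2430 CPM at day 7 (-0.28, adjusted p = 0.0399), and miR-126-5p gave -0.18 (adjusted p = 0.205). The call of miR-126-3p held without day 1 replicate 1 and was lost without any other single library, at adjusted p between 0.0729 and 0.108. The fit of days 1 and 7 alone lost it as well (0.0743).

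Among the remaining large falls, miR-3073b-5p, which lies opposite an intron of Aspg on chromosome 12, stood at 24.8, 20.5 and 20.9 CPM at day 1 and at 6.27, 9.35 and 10.4 CPM at day 7 (2.42-fold lower, adjusted p = 0.000584). miR-365-3p and miR-193b-3p, neighbours on chromosome 16 (miR-365-3p has a second copy on chromosome 11), were 1.83-fold and 1.76-fold lower, with miR-365-3p at 88.6 to 140 CPM at day 1 and 51.2 to 68.0 CPM at day 7. miR-1968-5p (-0.90), from an intron of Grtp1, and miR-335-3p (-0.72), from an intron of the imprinted gene Mest, also fell. miR-194-2-3p (-0.71) fell, but was not called without day 7 replicate 1 (adjusted p = 0.0571).

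Of the 10 most abundant miRNAs, miR-22-3p and miR-192-5p were called. miR-10a-5p, from a Hox cluster, held 13.3% ± 1.93 of the reads at day 1 and 16.8% ± 2.49 at day 7 (SD, n = 3 libraries) and was not called by limma (adjusted p = 0.135). Library totals (0.0268) or the omission of day 1 replicate 3 (0.025) brought it past the threshold. miR-22-3p fell from 10.1% ± 0.988 to 8.33% ± 0.963 (limma on scaled CPM, adjusted p = 0.0165), and omitting day 1 replicate 1 (0.0784) or day 7 replicate 1 (0.0746) ended the call. So did the fit of days 1 and 7 alone (0.0508). miR-10b-5p, miR-143-3p, miR-26a-5p, miR-27b-3p and let-7f-5p had log2 differences between -0.09 and 0.03.

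Several other falls at high levels were small. miR-378-3p, known from energy metabolism, stood at 23723, 22449 and 22058 CPM at day 1 and at 13523, 15547 and 16844 CPM at day 7 (1.49-fold lower, adjusted p = 0.000373). miR-101a-3p stood at 10719, 10800 and 11238 CPM at day 1 and at 7349, 8559 and 8191 CPM at day 7 (1.36-fold lower, adjusted p = 0.000952). miR-221-3p, which represses the cell cycle inhibitor p27, was 1.40-fold lower (adjusted p = 0.000584). In each of these every day 7 library was below every day 1 library. These 3 were chosen after their values were seen.

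The arms of a hairpin were compared where both were tested. Of 150 such pairs, both arms were called in 26, of which 17 were higher in both and 9 lower in both, and none moved in opposite directions. The pairs are not all separate, since miR-199a and miR-199b, both among the 17, have identical 3p reads. How many pairs would agree given the calls over all miRNAs was not tested. In 51 pairs 1 arm was called and in 73 neither was. miR-28 is an example of an unequal pair chosen after its values were seen. miR-28-5p was 1.38-fold higher (adjusted p = 0.00286) while miR-28-3p overlapped between the days (0.03, 95% interval -0.24 to 0.30), and the difference between the arms was not tested.

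The other days, not used in the contrast, show where each level stood between day 1 and day 7. miR-214-3p had a mean of 46.8 CPM on day 0, went from 67.8 CPM on day 1 through 138 CPM the next day to 248 CPM on day 3, and stood at 232 CPM on day 7 and 102 CPM on day 28. Its mean on day 3 was thus not below that on day 7. miR-298-5p took a like course, at 32.0 CPM on day 3 and 29.2 CPM on day 7. miR-199a-3p, by contrast, stood at 1909 CPM on day 0, 1900 CPM on day 1 and 2934 CPM on day 3, and reached 5114 CPM on day 7.

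miR-511-3p had its highest mean on day 7 (14.2 CPM, against 5.85 CPM on day 3 and 8.60 CPM on day 14). miR-375-3p had its highest mean on day 7 too, at 666 CPM against 189 CPM on day 0. miR-204-5p stood lower on day 1 (256 CPM) than on day 0 (316 CPM) and higher on day 7 (484 CPM). miR-190-5p went down from 206 CPM on day 0 through 170 CPM on day 1 to 94.0 CPM on day 7 and was back at 161 CPM on day 28.

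miR-21-5p had already gone from 14742 CPM on day 0 to 59455 CPM on day 1, and then stayed between 75184 and 77259 CPM from day 2 to day 7. miR-155-5p was at 57.7 CPM on day 0, 94.5 CPM on day 1, 99.3 CPM on day 3 and 70.0 CPM on day 7. miR-451 was at 393 CPM on day 0, 1162 CPM on day 1, 1329 CPM on day 2 and 233 CPM on day 3, so that its high days were days 1 and 2. miR-92a-3p likewise was at 5287 CPM on day 0, 11051 CPM on day 1 and 8037 CPM on day 7. The day 7 mean was thus above that of day 0 for miR-155-5p and miR-92a-3p and below it for miR-190-5p and miR-451.

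**Figure D4:**
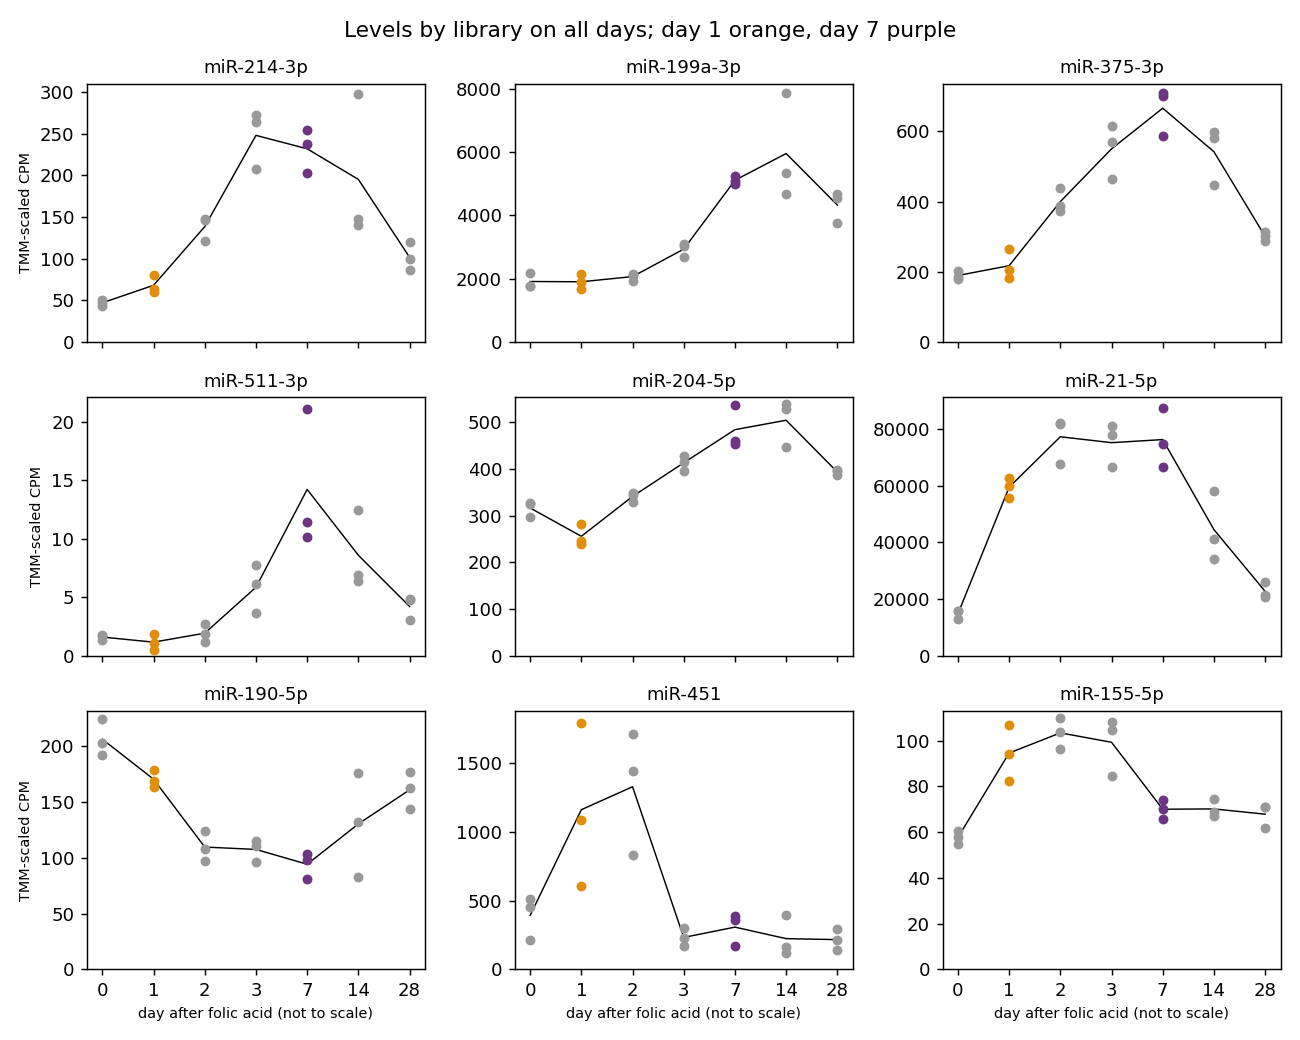
TMM-scaled CPM of 9 miRNAs in all 21 libraries by day after folic acid (days are evenly spaced, not to scale), with 1 point per library, a line through the day means, day 1 in orange and day 7 in purple. miR-214-3p is at its day 7 level by day 3, miR-199a-3p is not, and miR-451 is high on days 1 and 2.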

How the data were processed

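The authors deposited 1 table of CPM (miRNA reads scaled to the same total in each library) for 21 small RNA libraries of kidney, 3 per day on 7 days. CASAVA 1.8 and genome build mm9 were used, per the submitters' processing notes. The aligner, the counter and the miRBase version were not given in the sources used here. Whole reads were recovered from the CPM steps for 100% of values, within 0.05 of a read, and the totals cover reads assigned to miRNAs. miRNAs were filtered with edgeR 4.0.16 (filterByExpr, minimum count 10, on recovered reads). The main test was limma 3.58.1 (R 4.3.3, limma-trend) on log2(TMM-scaled CPM + 1) in 1 fit of the 21 libraries, contrast day 7 minus day 1, with Benjamini-Hochberg adjustment over the 431 miRNAs and a threshold of 0.05. It was tested on simulated data. Adjusted p-values in the text are limma's unless another tool is named.

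Named are the members of 22 lists, the 10 most abundant miRNAs, and 12 rises and 12 falls, the largest that were called, averaged 10 CPM or more over the 6 libraries and had no overlap between the days. List members were matched by name, so arms the table names otherwise stay outside the counts. The members and lists were chosen with earlier results of these data known, and other named miRNAs are described as members of a seed, an arm or as chosen afterwards. Each result was recomputed under 20 other settings, among them edgeR's quasi-likelihood test and DESeq2 1.42.0 on recovered reads, and 1 added after the data were seen, a fit of 18 libraries without day 0. Places in the genome are from GENCODE M21 and RefSeq on GRCm38; no coordinate of mm9 is given. 12 tested rows fall into 5 groups with identical reads. Intervals and floors cover counting or replicate error as stated.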

Additional observations from a re-analysis of the deposited data

How the results depend on the processing

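Across 21 alternatives the main count of 150 called miRNAs ranged from 96 to 165, and 71 miRNAs (47 higher, 24 lower) kept their call under every alternative that gave them a value. No named miRNA that was called reversed its direction. The counts that moved by more than 1.5 times were those with upper-quartile scaling (57 higher, 108 lower, 165 in all, of which 115 are among the 150), without the low-count filter (56 higher of 875 tested, 116 called), in the fit of days 1 and 7 alone (34 lower, with 101 called), and without day 7 replicate 1 (96 called, 61 higher, 35 lower). Leaving out 1 library gave between 96 and 140 calls, between 61 and 91 higher and between 35 and 50 lower. By construction the unfiltered setting tests more miRNAs and the settings with fewer libraries rest on fewer samples, and the cause of the upper-quartile shift was not tested. edgeR's quasi-likelihood test called 153 (96 higher, 57 lower) and DESeq2 148 (85 higher, 63 lower). The fit of 18 libraries without day 0, chosen after the data were seen, called 152.

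Libraries of equal replicate number had correlations of their deviations between days 1 and 7 of -0.15, 0.05 and -0.36. Libraries of unequal number had correlations from -0.20 to 0.32. With 3 libraries per day, these values cannot decide whether equal numbers pair the libraries. The fit with a replicate block called 151 miRNAs (93 higher, 58 lower), or 148 with library totals. Depth limits miRNAs near 1 CPM, such as miR-511-3p at day 1. With 3 libraries per day, small differences are poorly resolved. The median SD among the libraries of a day was 0.203 at day 1 and 0.204 at day 7 on the log2 scale. This is the spread of single libraries and sets no limit above which a difference is resolved. miR-21-5p, at 0.35, was not called (limma, adjusted p = 0.081).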

Other observations

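Among miRNAs that did not pass the filter, 7 had a read in every day 7 library and none in any day 1 library, and 4 had the reverse. The largest counts were 5 reads for miR-504-5p and 4 reads for miR-5104 at day 7, and 3 reads for miR-208b-3p at day 1, so each lies near the limit that a count of 0 allows. miR-467a-5p, with reads identical to those of miR-467b-5p, was at 2.51 to 2.99 CPM at day 1 and 4.48 to 9.09 CPM at day 7 (limma, log2 difference 0.96, adjusted p = 0.0076). miR-669a-5p was at 2.25 to 3.11 CPM at day 1 and 4.60 to 6.93 CPM at day 7 (0.84, adjusted p = 0.0105). Without day 7 replicate 1 neither was called (adjusted p = 0.0568 and 0.0612). These miRNAs were chosen after their values were seen. Of 7 tested miR-467 rows 6 were higher, and of 6 tested miR-669 rows 3 were, where 21.3% of all tested miRNAs were higher. The rows are not all separate. miR-669a-5p has the reads of miR-669p-5p, and miR-669a-3p, which was not called, those of miR-669o-3p. Without day 7 replicate 1, miR-467a-3p, miR-467d-3p, miR-467e-5p and miR-669c-5p also lost their calls (limma, adjusted p from 0.105 to 0.123).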
